A study of Saccharomyces cerevisiae with 6 samples.

Results

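The genes described here are named for proteins of the mitochondrial ribosome of Saccharomyces cerevisiae. They were chosen by name: every gene whose symbol in the platform annotation is MRP, MRPL or MRPS followed by a number, measured by a probe set assigned to 1 gene. The rule found 55 genes among the 5449 yeast genes tested, each with a single probe set. By the uniform ribosomal protein names in the RefSeq annotation, 37 belong to the large subunit and 17 to the small subunit. MRP8, the remaining gene, carries no such name and was given no subunit. It is counted among the 55 by its symbol alone, and the annotation used does not make it a ribosomal protein. Transcript levels came from 6 Affymetrix arrays, 3 of the wild-type strain FY4 (genotype labelled wildtype) and 3 of a Gcr2 deletion mutant, for which the labels state no strain. Both groups grew in batch in minimal medium with glucose and were taken in exponential growth. Nothing in the labels tells whether the 3 samples of a group were grown separately; the p-values reflect the spread among these arrays and that spread may be technical.

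Mitochondrial ribosomes translate the few mRNAs made from mitochondrial DNA, which code mostly for membrane subunits of the respiratory chain and the ATP synthase. In yeast all their proteins except Var1 are coded in the nucleus, made in the cytosol and imported. The ribosome resembles that of bacteria, with added proteins that bacteria lack. Gcr2 is a coactivator that works with the DNA-binding protein Gcr1 at glycolytic genes.

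Values are log2 intensities, normalized between arrays by the authors, and a change is read relative to the other genes measured. GCR2 itself was at 11.09, 11.06 and 11.17 on the wild-type arrays and at 4.69, 4.42 and 4.66 on the deletion arrays, where it was under background on all 3. The decrease was at least 27.5-fold (limma adjusted p = 1.01e-06). Of all genes tested, 22.5% were called at an adjusted p under 0.05, 14.1% higher and 8.35% lower in the deletion. "Rose" and "fell" are used below of called genes only. All 55 members lay above background on all 6 arrays, with values between 9.68 and 12.88. Levels of different genes are not compared, since probe sets differ in how well they hybridize.

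In a principal component analysis of all genes, wild-type replicate 3 and deletion replicate 1 lay farthest out on the leading axis (61.8% of variance). Wild-type replicate 3 stood apart from the other arrays in these genes, and it did so by gene length. Lengths are the gene lengths of the RefSeq R64 annotation. Of these 97.0% are multiples of 3 and the rest are not, so not every one is a coding length. Whether a given length includes introns or untranslated ends was not checked. Split into 3 length classes, the short members were 18 genes of 213 to 474 bases. All 18 read lower on wild-type replicate 3 than the mean of wild-type replicates 1 and 2, by a median of 0.60, and 17 of them were lowest of all 6 arrays there. Of the 19 long members (810 to 1185 bases) 7 read lower, with a median difference of 0.017. MRPL33, a gene of 261 bases for a large subunit protein, was at 11.25, 11.29 and 9.92 on wild-type replicates 1 to 3. MRP4, a gene of 1185 bases for a small subunit protein, was at 11.46, 11.41 and 11.38. Short members therefore carried a wide wild-type spread and long members a narrow one: the median wild-type SD was 0.35 in the short class and 0.057 in the long class.

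**Figure D1:**
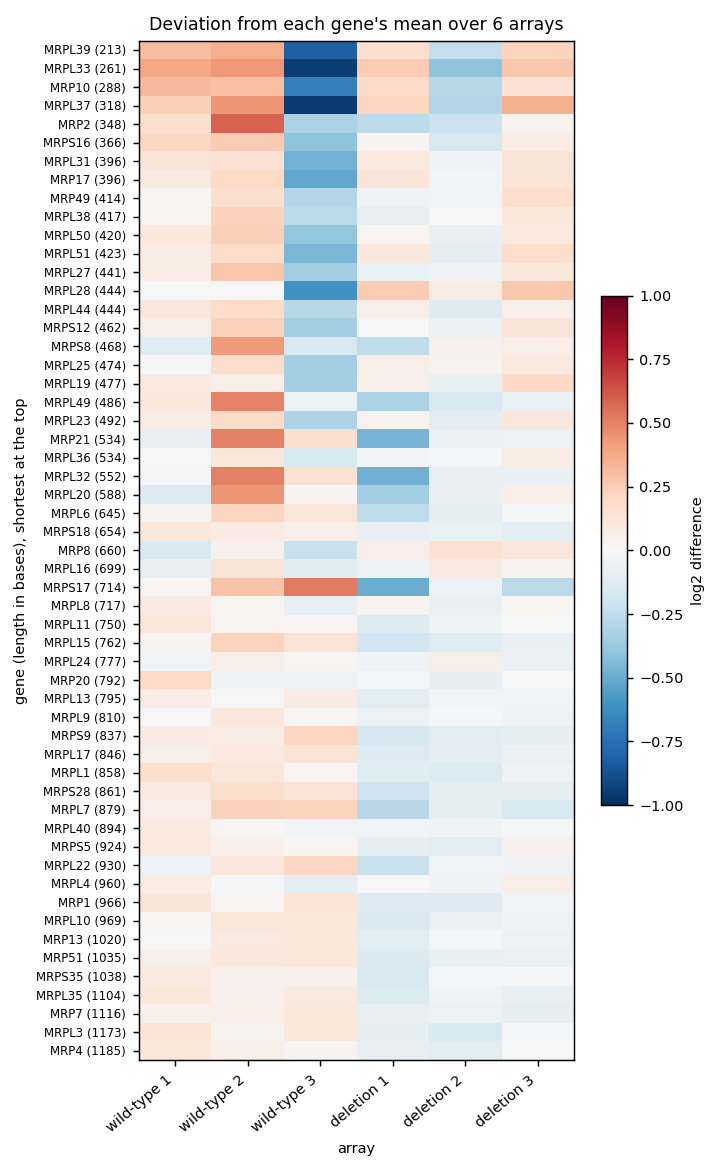
Deviation of each member (rows, shortest gene at the top, length in bases in brackets) from its own mean over the 6 arrays (columns), as a log2 difference. The short genes at the top are low on wild-type replicate 3, while the long genes at the bottom are mostly above their mean on the 3 wild-type arrays and below it on the 3 deletion arrays.

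The same relation held across the array and was weaker for another array. Across the 55 members, the difference of wild-type replicate 3 from the other wild-type arrays had a Pearson r of 0.88 with log2 length (Spearman rho 0.86), and across all 5449 genes an r of 0.45 (rho 0.39). Deletion replicate 2, set against deletion replicates 1 and 3, gave an r of 0.64 over the members and 0.19 over all genes. These are descriptions across genes that share the same arrays, not replicates. Among the 586 genes outside the family of 51 to 474 bases, the median difference of wild-type replicate 3 was -0.32. Of these, 506 lay above background on all 6 arrays. Among the 3940 of 810 to 14733 bases it was 0.029. Both ranges reach beyond those of the members. The part of this length relation in the results below was not tested; medians of gene groups, and the calls of members and other genes, are given below also without wild-type replicate 3.

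**Figure D2:**
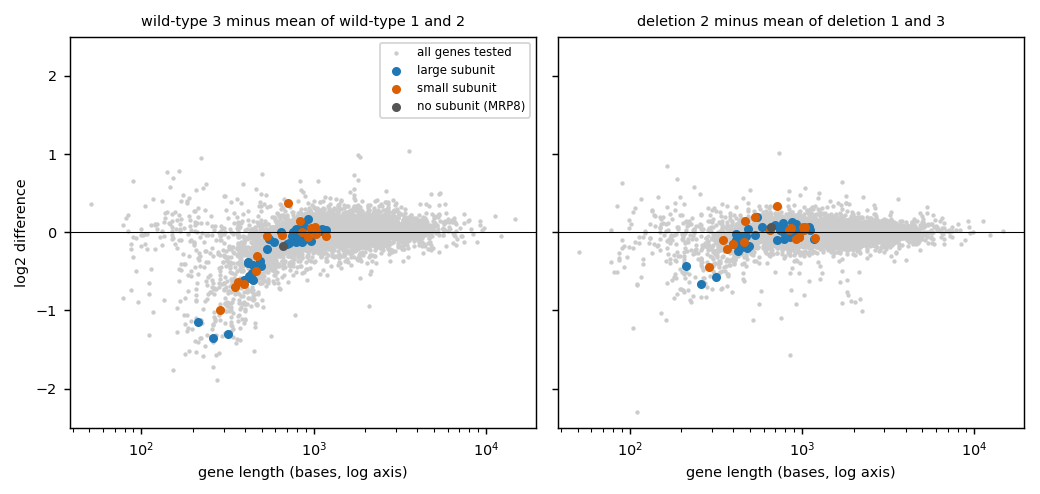
Log2 difference of wild-type replicate 3 from the mean of wild-type replicates 1 and 2 (left) and of deletion replicate 2 from the mean of deletion replicates 1 and 3 (right), against gene length in bases on a log axis. Grey points are all 5449 genes tested and coloured points the 55 members; on the left the shortest members lie lowest, MRPL33 at -1.35.

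Of the mitochondrial ribosomal protein genes 10 fell in the deletion and none rose, by amounts between 1.11-fold and 1.27-fold. The count is 10 of 55, or 18.2%, against 8.35% of all genes called lower and 14.1% called higher. Counting both directions, the share of members called did not exceed the 22.5% of all genes. In 23 of 55 members (41.8%) every deletion array lay below every wild-type array, against 18.1% of all genes, and in 2 members (3.64%) every deletion array lay above, against 27.1%. The median change of the members was -0.10, with 36 of 55 lower, and that of all genes was 0.024, with 44.5% lower. Without wild-type replicate 3 the members' median was -0.15 and 53 of 55 were lower, all except MRP8 and MRPL28, against 45.9% of all genes. That fit keeps deletion replicate 2, on which short members also read low. With each array's trend on gene length removed instead, 42 of 55 were lower, against 50.9% of all genes.

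The calls themselves rested on few arrays. Without wild-type replicate 3 limma called 5 of 55 members, all lower, against 6.7% of all genes called lower. They were MRPL7, MRPS28, MRPS9, MRPL1 and MRPS18. The other 5 then had limma adjusted p-values of 0.0502 (MRPL17), 0.0513 (MRP51), 0.0673 (MRP7), 0.0717 (MRPL15) and 0.0863 (MRPL35), with changes between -0.26 and -0.14. The test called 6 without wild-type replicate 1, all lower, against 6.2% of all genes called lower. It called 7 without wild-type replicate 2, of which 1 was higher, against 8.7% of all genes called lower. Of all genes 3.52% were called lower without deletion replicate 2, where 1 member was called. Without deletion replicate 1 or 3 it called 0 members, and 3.36% and 3.06% of all genes were called lower. In those last 2 fits 14 and 17 members had an unadjusted p under 0.05, 13 and 17 of them lower. The share of all genes at that threshold was not taken there. With all arrays 20 of 55 members were lower at that threshold, against 15.3% of all genes. Calls over all genes also dropped without deletion replicate 1 or 3, from 1224 to 483 and 406. Scaling to the poly-A spikes added as controls, in place of the authors' scale, moved the median of all genes from 0.024 to 0.90. Every member was then higher, 47 of them called, and 4952 genes in all were called. This scaling shifts every gene of an array by the same amount, so the 0.12 between the members' median and that of all genes could not change. Directions here are therefore relative to the bulk of the array.

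**Figure D3:**
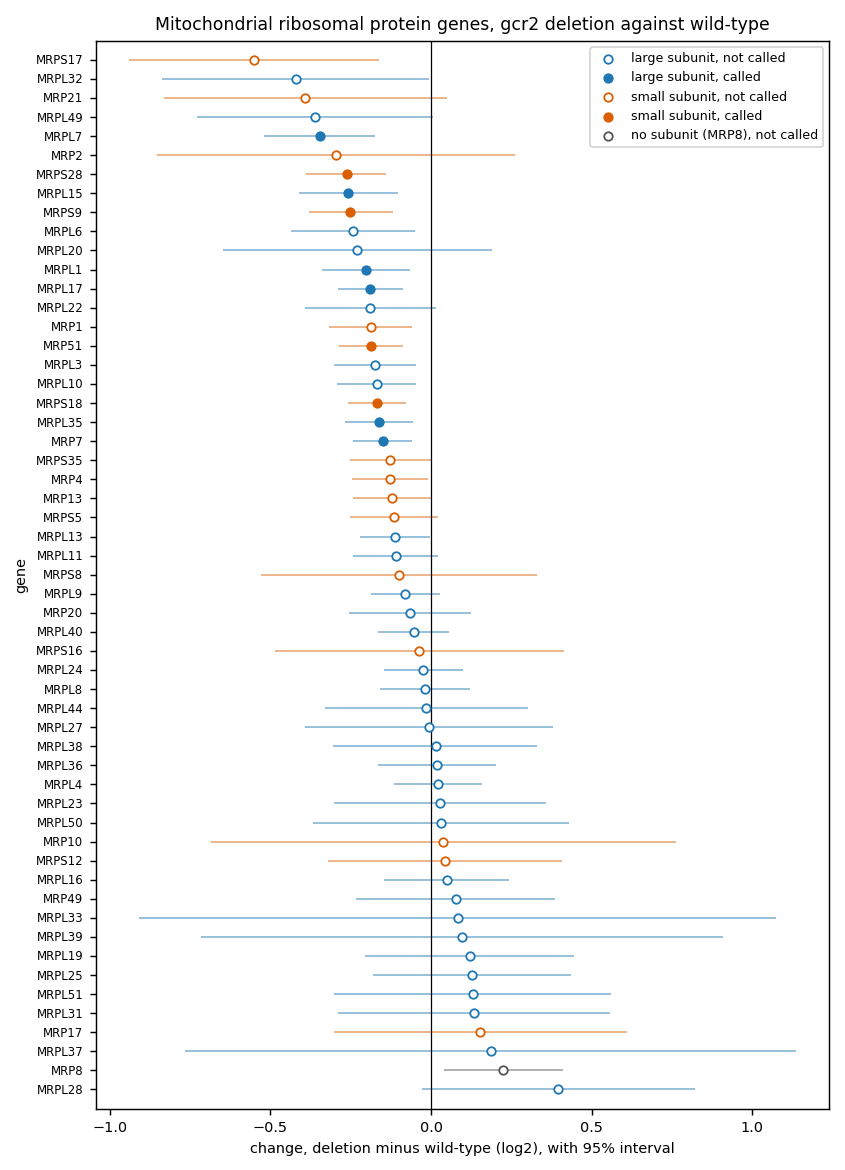
Change of each of the 55 members (deletion minus wild-type, log2) with limma's 95% interval, ordered by change; filled points are called at an adjusted p under 0.05. The 10 called genes are all lower and have narrow intervals, and the members farthest from 0 on either side are not among them.

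In the large subunit 6 of 37 genes fell (16.2%, against 8.35% of all genes) and 31 did not pass. Without wild-type replicate 3, 2 of the 37 were called, both lower, against 6.7% of all genes called lower. The steepest fall with a call was in MRPL7, for a protein conserved in all ribosomes that sits in the central protuberance. It was at 11.28, 11.45 and 11.44 in wild-type and at 10.94, 11.13 and 11.06 in the deletion. The groups did not overlap, and the change was -0.35 (SE 0.07, limma adjusted p = 0.0212). MRPL1 codes for the protein of the stalk by which spent transfer RNA leaves the ribosome. It was at 11.20, 11.15 and 11.05 in wild-type and at 10.91, 10.89 and 10.99 in the deletion, a fall of 1.15-fold with wild-type replicate 3 nearest to the deletion arrays (limma adjusted p = 0.0479).

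MRP7 codes for the counterpart of a bacterial protein next to the peptidyl transferase centre, where peptide bonds form. Its wild-type values were 11.16, 11.18 and 11.22 and its deletion values 11.03, 11.06 and 11.02, so that the change of -0.15 was small but larger than the spread within either group (SD 0.027 and 0.019, n = 3 each). The other falls were in proteins that bacteria lack. MRPL15 was at 11.38, 11.58 and 11.49 in wild-type and at 11.16, 11.24 and 11.28 in the deletion. MRPL17 was at 11.13, 11.17 and 11.21 against 10.95, 10.98 and 11.01, and MRPL35 at 10.89, 10.83 and 10.88 against 10.65, 10.75 and 10.71. None of these pairs of groups overlapped, and the limma adjusted p-values were 0.0341, 0.0257 and 0.0458.

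In the small subunit 4 of 17 genes fell (23.5%, against 8.35% of all genes) and 13 did not pass. Without wild-type replicate 3, 3 of the 17 were called lower, against 6.7% of all genes. MRPS28, for a universally conserved protein, had the smallest adjusted p of all members. It was at 11.38, 11.48 and 11.43 in wild-type and at 11.09, 11.20 and 11.21 in the deletion, a change of -0.26 (SE 0.05, limma adjusted p = 0.0189). MRPS9, also universally conserved, was at 12.17, 12.16 and 12.30 against 11.91, 11.98 and 11.98, a change of -0.25 (limma adjusted p = 0.024). In both genes the lowest wild-type array lay above the highest deletion array.

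MRP51 is known from suppressors of mutations in the leader of the COX2 mRNA. Its values were 11.999, 12.04 and 12.03 in wild-type and 11.79, 11.86 and 11.87 in the deletion, a change of -0.19 (SE 0.04, limma adjusted p = 0.0261). MRPS18, a protein of the platform of the subunit, was at 12.02, 11.99 and 11.97 against 11.82, 11.84 and 11.80, a change of -0.17 (limma adjusted p = 0.0265). Wild-type replicates lay close together in both, with SDs of 0.021 and 0.026. Across 16 alternative settings the called members kept their call in 12 (MRPL7), 11 (MRPS28 and MRPS9), 9 (MRPL17 and MRPS18), 8 (MRPL1 and MRPL15), 7 (MRP51) and 5 (MRP7 and MRPL35).

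**Figure D4:**
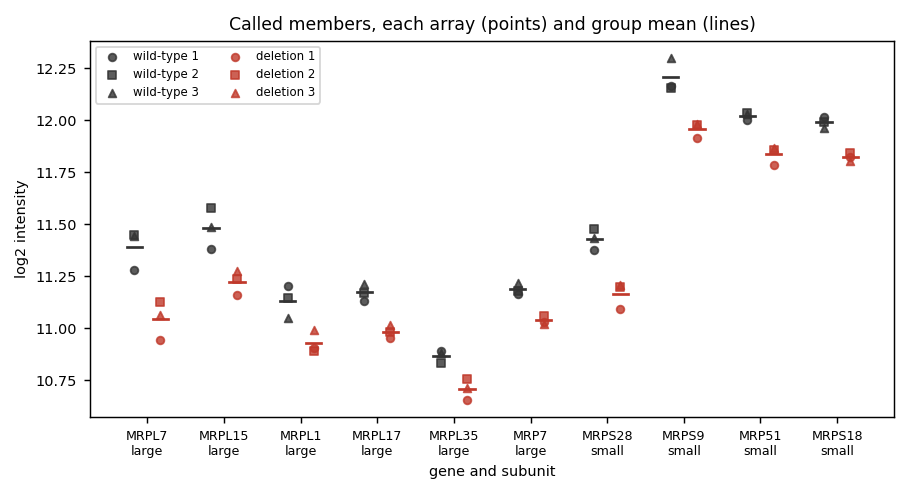
Log2 intensity of the 10 called members on each array (points, marker shape by replicate) and group means (lines), wild-type in grey and deletion in red. In every one of the 10 genes the 3 deletion arrays lie below the 3 wild-type arrays.

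Members with the most negative change were not called, because their arrays scattered more. MRPS17, for a universally conserved small subunit protein, was at 11.54, 11.80 and 12.03 in wild-type and at 11.02, 11.46 and 11.24 in the deletion. The groups did not overlap, and the change of -0.55 had an adjusted p of 0.0545 in limma's test, with wild-type replicate 3 the highest and deletion replicate 1 the lowest. MRPL32 codes for a protein that the m-AAA protease trims before assembly. It was at 11.95, 12.48 and 12.12 against 11.49, 11.90 and 11.90 (change -0.42, SE 0.17), again without overlap. MRP21, like MRP51 a suppressor of COX2 leader mutations, was at 10.80, 11.40 and 11.06 against 10.42, 10.83 and 10.83 (change -0.39), and here the groups overlapped. MRPL49 was at 11.36, 11.75 and 11.19 against 10.93, 11.09 and 11.18 (change -0.36), without overlap. In MRPL32, MRP21 and MRPL49 wild-type replicate 2 was the highest array and deletion replicate 1 the lowest.

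At the other end, 2 members were higher on every deletion array without passing the test. MRPL28, for a large subunit protein that bacteria lack, was at 10.76, 10.76 and 10.15 in wild-type and at 11.01, 10.83 and 11.02 in the deletion. Its change was 0.40 (SE 0.17, limma adjusted p = 0.153), and 0.19 without wild-type replicate 3. MRP8, a member by its symbol alone, was at 12.57, 12.77 and 12.49 against 12.79, 12.88 and 12.84, a change of 0.23 (limma adjusted p = 0.0817). MRP8 and MRPL28 were also the only members that stayed above 0 without wild-type replicate 3.

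The other members above 0 turned below it without wild-type replicate 3, and most of them were in the short class. MRPL37, a gene of 318 bases for a large subunit protein, was at 10.89, 11.09 and 9.68 in wild-type and at 10.86, 10.35 and 11.003 in the deletion. Its change was 0.18 with all arrays and -0.25 without wild-type replicate 3. MRP17, for a small subunit protein first found through suppressors of pet122 mutations, differed by 0.15 with all arrays and by -0.066 without that array. MRPL31 and MRPS12, at 12.33 and 12.38 over the 6 arrays, turned from 0.13 to -0.072 and from 0.043 to -0.12. MRPL19, of 477 bases in the middle class and at 10.60 over the 6 arrays, turned from 0.12 to -0.018. MRPS35, of 1038 bases and at 10.74, kept its direction, with -0.13 and -0.14.

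The 3 length classes were drawn after the values were seen, and their changes are given without a test. Of the 19 longest, 18 were lower, 8 of them called (42.1%), and in 15 (78.9%) the groups did not overlap. Among the 3940 other genes of 810 bases or more, 8.93% were called lower and 20.1% were lower without overlap. Their median length was 1563 bases, so many were longer than any member. With wild-type replicate 3 left out, 4 of the 19 were called lower, as were 262 of those 3940 other genes. MRPL4, for a protein near the exit of the peptide tunnel, was the exception among the longest, with 0.020. Of the 18 shortest, 5 were lower and none was called, and their median was 0.059. Without wild-type replicate 3 the medians of the short, middle and long classes were -0.16, -0.12 and -0.15, and 17 of 18, 17 of 18 and 19 of 19 were lower. Deletion replicate 2, kept in that fit, read 17 of the 18 short members below the mean of deletion replicates 1 and 3 (median -0.15). Among the 586 other genes of 51 to 474 bases, 59.7% were lower in that fit, with a median of -0.064. With each array's length trend removed, 9 of 18, 15 of 18 and 18 of 19 members were lower, with medians of -0.014, -0.14 and -0.19. Of the other genes in the 3 length groups 51.2%, 50.6% and 50.6% were then lower. The correlation of change with log2 length over the members went from -0.46 to 0.19 when wild-type replicate 3 was left out.

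**Figure D5:**
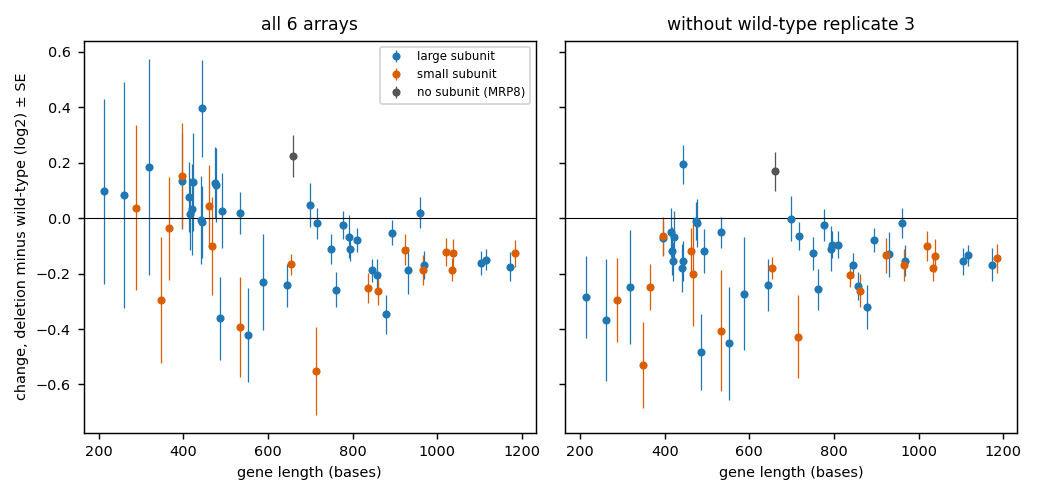
Change of each member (deletion minus wild-type, log2, with limma's SE as bars) against gene length in bases, with all 6 arrays (left) and without wild-type replicate 3 (right). On the left 13 of the 18 shortest members lie above 0; on the right all members except MRP8 and MRPL28 lie below 0.

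The small subunit had the lower median of the pair, by a margin that shrank without this array. With all arrays the median change was -0.024 in the large subunit, with 22 of 37 genes lower, and -0.13 in the small subunit, with 14 of 17 lower. The large subunit median was close enough to 0 to turn to 0.014 without wild-type replicate 1. Without wild-type replicate 3 the medians were -0.13 and -0.18, with 36 of 37 and 17 of 17 lower. With each array's length trend removed they were -0.081 and -0.175, with 26 of 37 and 16 of 17 lower. In the main fit, the long class had medians of -0.17 for 11 large subunit genes and -0.16 for 8 small subunit genes. In the short class the medians were 0.091 for 12 large and 0.0 for 6 small subunit genes. In the middle class they were -0.089 for 14 large and -0.39 for only 3 small subunit genes. Groups did not overlap, with the deletion lower, in 14 of 37 large (37.8%) and 9 of 17 small subunit genes (52.9%). Over all genes that share was 18.1%. Genes are not replicates of a subunit, so the difference between subunits was not tested.

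Seen array by array, both subunits gave the same order of groups, except on 1 array. Each gene was set against its own mean over the 6 arrays. The median deviation of large subunit genes was 0.074, 0.13 and -0.062 on wild-type replicates 1 to 3 and -0.054, -0.071 and 0.018 on deletion replicates 1 to 3. In small subunit genes it was 0.087, 0.18 and 0.046 against -0.13, -0.072 and -0.020. The small subunit medians of the groups did not overlap, while in the large subunit wild-type replicate 3 lay among the deletion arrays.

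Grouped by the origin of the proteins, all 3 classes had a median below 0. Genes for universally conserved proteins had a median change of -0.11, with 5 of 24 called lower (20.8%, against 8.35% of all genes). Genes for proteins shared with bacteria had a median of -0.031, with 2 of 12 called lower (16.7%). Those for proteins particular to mitochondria had -0.063, with 3 of 18 called lower (16.7%). Their median lengths were 771, 534 and 531 bases. With each array's length trend removed 20 of 24, 10 of 12 and 12 of 18 were lower. Without wild-type replicate 3 the medians were -0.14, -0.17 and -0.16, and 24 of 24, 12 of 12 and 17 of 18 were lower. The 5 members still called were all universally conserved. MRPL17 and MRP51, of the other classes, then missed the threshold narrowly (limma adjusted p = 0.0502 and 0.0513).

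Further mitochondrial ribosomal proteins have genes with other names. Of 16 such small subunit genes 2 fell (12.5%, against 8.35% of all genes) and 14 missed the threshold. In 10 of 16 (62.5%) the deletion was lower without overlap, against 18.1% of all genes. The median was -0.16, and -0.22 without wild-type replicate 3. PET123, another protein known from suppressors of pet122 mutations, fell by 0.39 (SE 0.07, limma adjusted p = 0.0138). RSM22 fell by 0.27 (limma adjusted p = 0.0148). Of 8 such large subunit genes 2 fell, MNP1, for the counterpart of the bacterial stalk protein that binds translation factors, by 0.32 (limma adjusted p = 0.0253) and RML2, for a protein of the ribosome core, by 0.17 (limma adjusted p = 0.0335). The other 6 did not pass, 4 of 8 were lower, and the list's median went from 0.015 to -0.14 without wild-type replicate 3.

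Factors that work with these ribosomes moved both ways. Of 14 mitochondrial translation factor genes 4 fell, 1 rose and 9 missed the threshold; 28.6% fell, against 8.35% of all genes. Their median was -0.041 with 8 of 14 lower, and -0.090 with 11 of 14 lower without wild-type replicate 3, when 3 were called lower. MEF1, elongation factor G, was at 11.82, 11.83 and 11.83 in wild-type and at 11.41, 11.43 and 11.45 in the deletion, a fall of 0.40 on the log2 scale (SE 0.04, limma adjusted p = 0.00175). This was a larger change than in any called ribosomal protein gene of the family. AIM23, an initiation factor, fell by 0.23 and TUF1, elongation factor Tu, by 0.19, whereas PET112, for a subunit of the enzyme that makes glutaminyl transfer RNA, rose by 0.23.

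Among 17 genes for assembly, ribosomal RNA modification and membrane attachment 5 fell, 1 rose and 11 missed the threshold; 29.4% fell, against 8.35% of all genes. The median was -0.087, and -0.092 without wild-type replicate 3, when 4 were called lower. MAM33, for an acidic matrix protein, fell by 0.35 (limma adjusted p = 0.00462). YTA12, a subunit of the protease that trims Mrpl32, fell by 0.21, MBA1, a membrane receptor of the ribosome, by 0.17 and MRM1, a methyltransferase of the large ribosomal RNA, by 0.16. The gene that rose was MTG1, an assembly GTPase, by 0.19; it was named after its value was seen.

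Genes for activators of single mitochondrial mRNAs were lower in 13 of 14, but only 3 fell (21.4%, against 8.35% of all genes) and 11 did not pass. The median was -0.15, and -0.091 without wild-type replicate 3, when 13 of 14 were again lower and MSS51 lost its call (limma adjusted p = 0.0642). PET122, needed for translation of the COX3 mRNA, showed the largest change of all genes in these lists. It was at 11.42, 11.12 and 11.38 in wild-type and at 10.24, 10.17 and 10.21 in the deletion, a change of -1.10 (SE 0.09, limma adjusted p = 0.00131). AEP2, for the ATP9 mRNA, fell by 0.29 and MSS51, for the COX1 mRNA, by 0.16. Among 11 genes of mitochondrial transcription and DNA upkeep 2 fell (18.2%, against 8.35%) and 9 did not pass: RPO41, the mitochondrial RNA polymerase, fell by 0.30 and PIF1, a DNA helicase, by 0.21. The list as a whole had no steady direction, with a median of -0.010 and 7 of 11 lower, but 0.003 and 5 of 11 without wild-type replicate 3. PIF1 was then not called (limma adjusted p = 0.0609).

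Of 10 regulators 2 fell (20%, against 8.35% of all genes), 1 rose and 7 did not pass. The median was 0.11, and 0.13 without wild-type replicate 3. PUF3, whose protein binds mRNAs of many mitochondrial ribosomal proteins, was at 8.67, 8.43 and 8.83 in wild-type and at 7.80, 8.21 and 8.001 in the deletion, a change of -0.64 (SE 0.14, limma adjusted p = 0.0247). HAP4, the activating subunit of the complex that turns on respiratory genes, was at 12.39, 12.45 and 12.37 against 11.54, 11.91 and 11.90, a change of -0.62 (limma adjusted p = 0.0135). In both genes all deletion arrays lay below all wild-type arrays, with deletion replicate 1 the lowest. HAP2, for a DNA-binding subunit of the same complex, rose by 0.30 (limma adjusted p = 0.0343). HAP3 and HAP5 were higher on every deletion array without passing, by 0.52 and 0.25 (limma adjusted p = 0.0505 and 0.0513). HAP3 was called without wild-type replicate 3 (limma adjusted p = 0.0342). Of the 10 regulators 4 were higher without overlap (40%, against 27.1% of all genes) and 2 lower (20%, against 18.1%). HAP4 and HAP2 kept their calls without wild-type replicate 3 and PUF3 did not (change -0.55, limma adjusted p = 0.0524). PUF3 kept its call in 9 of 16 alternative settings, HAP4 in 15 and HAP2 in 10.

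Precision differed between the members. The median half-width of a member's 95% interval was 0.19, against 0.15 for all genes, and 43 of 55 intervals lay within a 1.5-fold change in either direction. In the short class the half-width was 0.43, wider than the change of any called member. The median wild-type SD of that class went from 0.35 to 0.087 when wild-type replicate 3 was left out.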

How the data were processed

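RNA of 3 wild-type and 3 gcr2 deletion samples was hybridized to Affymetrix arrays, and the authors deposited 1 table of linear intensity values for 10928 probe sets. Per the submitters' processing notes the tools were R 2.8.0, the package affy and RMA, a method that corrects background, equalises the distributions of the arrays and so removes any change in total mRNA. No genome build is given in the sources used. Log2 was taken with no pseudocount. The platform annotation and RefSeq R64 named 5498 probe sets, and the brightest per gene was kept (5449 genes). Background was the 95th percentile of 1746 probe sets of the other yeast species on the array, and no gene was removed for low signal.

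limma 3.58.1 in R 4.3.3 (lmFit and eBayes, two-sided, no covariates) compared the groups, with Benjamini-Hochberg adjustment over all genes. It was also run on simulated data, with independent noise whose variances came from limma's own fit. The simulation held no length relation between arrays, so it does not check the calls made here. Changes are deletion minus wild-type. Members and lists were chosen with earlier results of these data known. Genes named are the called members, the 4 most positive and 4 most negative changes, the 3 brightest and 3 dimmest members and MRP8. Of each further list at most 4 called genes are named by rule. MRPL33, MRP4, MRPL4, MTG1, HAP3 and HAP5 were added after their values were seen. VAR1 is not analysed here. The alternatives were the replicate block, each array left out, the outermost array of each group left out together, 3 other scalings, a filter on dim genes, averaged probe sets, array weights and a trended robust prior. Removing each array's trend on gene length (loess, span 0.4) was added after seeing the data.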

Additional observations from a re-analysis of the deposited data

How the results depend on the processing

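The counts of calls, the subunit medians, GCR2 and the named members were recomputed under 15 planned settings and the added removal of the length trend; length classes, protein origins, array profiles, non-overlap counts and the medians of further lists were not run under all of them. Of the main counts, 10 members (6 large, 4 small subunit) and 1224 genes were called. Leaving out 1 array at a time gave 0 to 7 members, 0 to 3 large and 0 to 4 small subunit genes and 406 to 1225 genes in all; the median change was between -0.131 and 0.014 in the large and between -0.181 and -0.118 in the small subunit, and 0.014 was without wild-type replicate 1. Replicate numbers did not pair the arrays (correlations of same-numbered deviations 0.53, -0.17 and -0.44); wild-type replicate 2 correlated best with deletion replicate 3 (0.49) and wild-type replicate 3 with deletion replicate 2 (0.58), and no label ties those arrays; with the replicate block 5 members, 2 large subunit genes and 733 genes were called. Without wild-type replicate 3 and deletion replicate 1 together, limma called 0 members, 0 large and 0 small subunit genes and 328 genes. In that fit 11 members were lower at an unadjusted p under 0.05, and the share of all genes at that threshold was not taken. The large subunit median was -0.123, and fewer arrays were then fitted. With the length trend removed 17 members, 10 large subunit genes and 1397 genes were called. Of the members 16 were called lower, among them all 10 of the main setting, against 12.1% of all genes called lower. In that fit 42 of 55 members were lower, against 50.9% of all genes. Poly-A centring, which adds a constant to each array, gave 47 members, 33 large and 13 small subunit genes called higher, 4952 genes in all and medians of 0.851 and 0.748. Under it the named lower members turned to 0.483 (MRP21), 0.690 (MRP51), 0.725 (MRP7), 0.672 (MRPL1), 0.618 (MRPL15), 0.687 (MRPL17), 0.454 (MRPL32), 0.714 (MRPL35), 0.514 (MRPL49), 0.529 (MRPL7), 0.325 (MRPS17), 0.708 (MRPS18), 0.612 (MRPS28), 0.748 (MRPS35) and 0.625 (MRPS9). Without 1 array the changes ran from -0.066 to 0.291 in MRP17, -0.018 to 0.200 in MRPL19, -0.072 to 0.238 in MRPL31, -0.249 to 0.452 in MRPL37 and -0.120 to 0.168 in MRPS12. Without both outermost arrays these genes were at -0.093, -0.012, -0.088, -0.309 and -0.109, and MRPS12 was at -0.032 with the length trend removed. Quantile normalization and median centring each gave 8 members, all among the 10. Where not stated, the cause of a move was not tested.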
